A study of Mus musculus with 12 samples.

Results

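The 10 genes described here encode the histone demethylase UTX (*Kdm6a*) and the subunits it works with in the MLL3/4 complexes: *Kmt2c*, *Kmt2d*, *Ncoa6*, *Paxip1*, *Pagr1a*, *Ash2l*, *Rbbp5*, *Wdr5* and *Dpy30*. They were chosen by name from the known composition of the complex and are 10 of the 25860 genes listed in the RNA-seq table. All 10 were among the 14459 genes that were tested, those whose normalized count averaged 10 or more over the libraries. The question is whether loss of UTX in progenitor CD8+ T cells goes with a changed expression or accessibility of the genes of its own complex.

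CD8+ progenitor T cells (T_prog_) were sorted from pancreatic lymph nodes of WT and UTX TCD mice and profiled by RNA-seq and by ATAC-seq, in which a transposase cuts open chromatin. Each assay had 3 libraries for either genotype. All mice were nonobese diabetic (NOD) and carried the NY8.3 transgene, a T cell receptor against the β cell antigen IGRP. UTX TCD mice were *UTX fl/fl* with a Cre recombinase under the *Lck* promoter, which is active in developing T cells, so cells of other lineages keep an intact gene. Cre-negative littermates are given as the WT controls of the parent line, and the allele was brought from B6 mice onto NOD by repeated backcrossing. According to the methods only females were used, because males carry the homolog UTY on the Y chromosome. The age of the mice behind these libraries and the floxed exons are not given in the sources used here. The gate for sorting was Ly108+CXCR6- according to the labels and Ly108+CD39- according to the methods.

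UTX removes methyl groups from lysine 27 of histone H3, a mark of repressed genes, and is a stable subunit of the complexes built on MLL3 and MLL4, which methylate lysine 4 of histone H3 at enhancers. Ncoa6, PTIP and PA1 belong to the MLL3/4 complexes, whereas Wdr5, Rbbp5, Ash2l and Dpy30 form a core that all complexes of the MLL and SET1 family share. In CD8+ T cells UTX is known as a regulator of effector differentiation.

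Reads counted in genes numbered 146456724, 144503203 and 193568919 for WT replicates 1 to 3 and 61512402, 175462433 and 187275082 for those of UTX TCD. The shallowest library was UTX TCD replicate 1, but no gene of the complex lay near the limit of detection in it. Values below are normalized counts, that is, reads divided by a size factor per library. Each fold change is UTX TCD over WT on the scale of log2(normalized count + 1), with its standard error (SE) and a p-value from limma adjusted over all 14459 genes. For any single gene, 3 samples against 3 allow no exact permutation p below 0.10.

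The libraries carried markers of the sorted cells. The 5 CD8 T cell markers (*Cd8a*, *Cd8b1*, *Cd3e*, *Cd3d* and *Cd3g*) summed to 766577, 728119 and 746926 normalized counts in WT and to 761142, 741225 and 675806 in UTX TCD libraries, with *Cd8a* the most abundant. Within this list *Cd8b1*, *Cd3d* and *Cd3g* were lower and *Cd3e* higher past the adjusted p, with log2 fold changes of -0.37, -0.28, -0.26 and 0.17. *Cd3e* passed with all libraries or without UTX TCD replicate 3, and not without any of the other 5, where the adjusted p ran from 0.0547 to 0.155. *Cd3g* did not pass with the trend over exon length removed (-0.10, adjusted p = 0.215). The 4 progenitor markers (*Tcf7*, *Slamf6*, *Id3* and *Myb*), led by *Tcf7*, summed to between 266288 and 289609 in WT and between 271880 and 287611 in UTX TCD libraries, so the genotypes overlapped. Within this list *Myb* was higher past the adjusted p, at 0.48 (limma, adjusted p = 0.0401), although its counts overlapped: 13739, 17785 and 13240 in WT and 18571, 17632 and 27054 in UTX TCD libraries. It did not pass without WT replicate 1, WT replicate 3 or UTX TCD replicate 3 (adjusted p = 0.113, 0.112 and 0.0852; without the last of these the log2 fold change was 0.29), with DESeq2 (0.0911) or with the length trend removed (0.0523). The 4 mediator markers (*Cxcr6*, *Entpd1*, *Gzmb* and *Nkg7*), led by *Nkg7*, were lower in each UTX TCD library, at 25402, 27440 and 27756 against 42588, 35503 and 45608 in WT. *Nkg7* was at a log2 fold change of -0.46 (limma, adjusted p = 0.00127), and at -0.25 with a trend over exon length removed (adjusted p = 0.0386). *Gzmb* was at -0.47 (limma, adjusted p = 0.0217) and did not pass without WT replicate 1, WT replicate 3 or UTX TCD replicate 2 (adjusted p = 0.0943, 0.0799 and 0.0503). *Entpd1*, which encodes CD39 of the methods' gate, was at -1.15 (limma, adjusted p = 0.131), with overlapping counts of at most 29.6. *Cxcr6* itself, a marker on which the labels' gate was set, had a log2 fold change of -1.07 (limma, adjusted p = 0.000131).

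Markers of other cell types were low and some of them moved with genotype. The 3 B cell markers (*Ms4a1*, *Cd79a* and *Cd79b*) summed to 2923, 2415 and 2758 in WT and to 1194, 1069 and 922.2 in UTX TCD libraries, and *Cd79b*, the most abundant, was at a log2 fold change of -1.98 (limma, adjusted p = 1.47e-05). *Ms4a1* was higher, at 1.72 (limma, adjusted p = 0.0367), on counts of at most 73.0 in any library, and *Cd79a* overlapped between the genotypes at 0.19 (limma, adjusted p = 0.489). The 4 myeloid markers (*Lyz2*, *Csf1r*, *Cd68* and *Itgam*), with *Cd68* the most abundant, summed to between 872.8 and 1217 over the libraries of both genotypes, and within them *Cd68* was higher at 0.43 (limma, adjusted p = 0.0377), while *Itgam* and *Csf1r* were lower at -2.57 and -1.85 (limma, adjusted p = 8.1e-06 and adjusted p = 0.00496). The *Cd4* and *Foxp3* sum lay between 321 and 407, and that of the NK cell genes *Ncr1* and *Klrb1c* between 5.61 and 55.3, with *Ncr1* at 0 in 4 of the 6 libraries. *Cd4* alone was lower, at -0.74 (limma, adjusted p = 0.0384). Of these markers near the threshold, *Ms4a1* did not pass without WT replicate 1, WT replicate 3, UTX TCD replicate 2 or UTX TCD replicate 3 (adjusted p = 0.119, 0.0894, 0.0682 and 0.112). *Cd68* passed only without UTX TCD replicate 2 among the libraries left out, and so did *Cd4*, with adjusted p from 0.0528 to 0.12 and from 0.0619 to 0.101 without any of the other 5. *Cd4* also did not pass with DESeq2 (0.0573), the same-sum scaling (0.0543) or no filter on low values (0.0673). Of the genes on the Y chromosome, *Kdm5d* was at 0 in every library, and *Ddx3y*, *Eif2s3y* and *Uty* stayed below 10 normalized counts. Bulk RNA cannot tell fewer cells of a type from less RNA per cell, and the part of these marker differences in the results on the complex was not tested.

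*Kdm6a* lies on the plus strand of chromosome X of GRCm38 (mm10), at chrX:18160862-18279936, and its exons overlap those of no other RefSeq gene. Its normalized counts were 28365, 28949 and 29172 in the WT libraries and 24158, 24792 and 24579 in the UTX TCD libraries. Each UTX TCD library was below each WT library, and the values within a genotype lay close together. The mean of UTX TCD cells, 24510 ± 322 (SD, n = 3), was 85.0% of the WT mean, 28828 ± 417 (SD, n = 3). This gave a log2 fold change of -0.23 (SE 0.037, 95% confidence interval -0.32 to -0.15; limma, adjusted p = 0.00114). The decrease held under the 17 alternatives run, with adjusted p from 1.26e-06 to 0.00658. Counts per gene add up reads over all exons, and a transcript that lacks only floxed exons is still counted. The count therefore does not measure how complete the deletion was, and no exon counts or protein were analysed here. For the parent line, without the NY8.3 transgene, the paper reports less UTX protein in T cells of UTX TCD mice than in controls.

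The 9 partners did not follow *Kdm6a* in 1 direction. Over the 10 genes, 4 passed an adjusted p of 0.05 by limma, against 40.7% of all tested genes. Of these, 2 were higher (*Kmt2c* and *Kmt2d*), against 20.2% of all genes, and 2 were lower (*Kdm6a* and *Dpy30*), against 20.5%. The counts of the complex thus lay near those of any 10 tested genes and do not set it apart. The median log2 fold change of the 10 genes was 0.0061 and that of all tested genes -0.00018. The values of the genotypes did not overlap for 6 of the 10 genes, 3 higher and 3 lower, against 51.9% of all genes.

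A call, which adds an absolute log2 fold change over 0.5 to the adjusted p, was reached by 0 of the 10 genes with limma, against 17.6% of all tested genes. The count was also 0 with edgeR and with DESeq2, while 7 of the 10 had an unadjusted p under 0.05 in limma, as did 7097 of the 14459 tested genes. Scaling each library to the same sum made 1 call, *Kmt2d* at a log2 fold change of 0.51. That scaling also moved the balance over all genes, with 3793 genes higher and 2184 lower past the adjusted p in place of 2924 and 2963, and the median over all genes to 0.06.

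**Figure D1:**
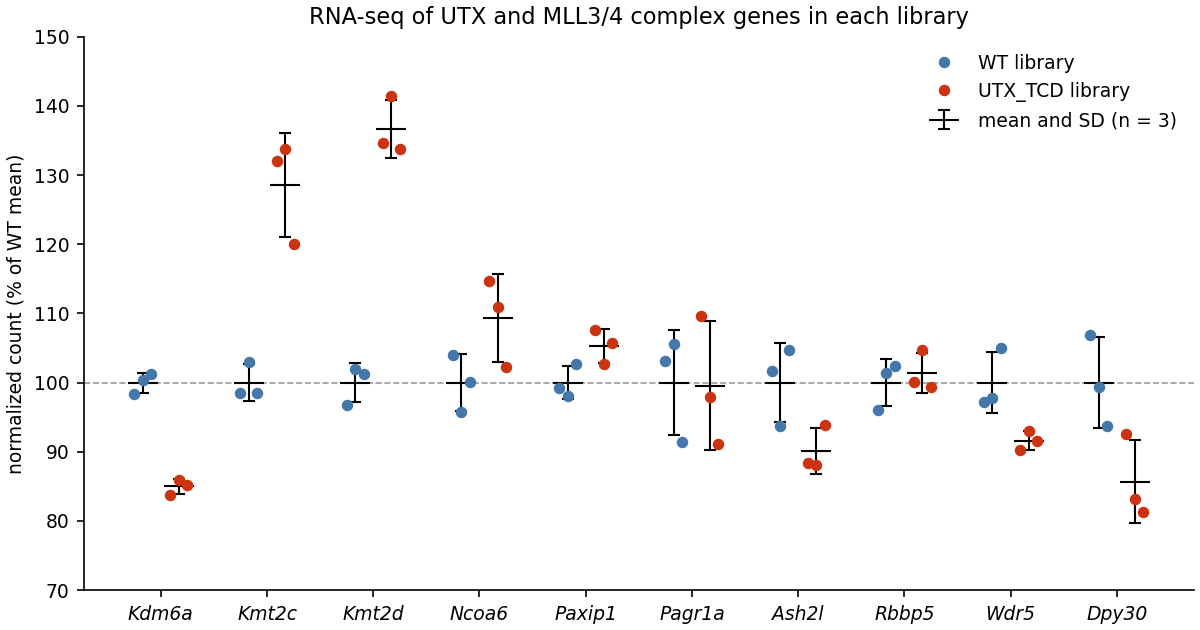
Normalized RNA-seq count of each gene of the complex in each library, as a percentage of the gene's WT mean, with the mean and SD of 3 libraries per genotype; the y axis starts at 70%. *Kmt2c* and *Kmt2d* lie above 100% in each UTX TCD library and *Kdm6a* near 85.0%, while the points of *Ncoa6*, *Pagr1a*, *Ash2l* and *Rbbp5* overlap between the genotypes.

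The methyltransferases of the complex rose. *Kmt2d*, at chr15:98831669-98874077 on the minus strand, encodes MLL4, the main enzyme that places a single methyl group on lysine 4 at enhancers. It was counted at 177679, 187075 and 185822 in WT and at 247093, 259536 and 245514 in UTX TCD libraries. The lowest UTX TCD library stood well above the highest WT library. The log2 fold change was 0.45 (SE 0.050, 95% confidence interval 0.34 to 0.56; limma, adjusted p = 0.000149), the largest in absolute value among the 10 genes. *Kmt2d* was also the most highly counted gene of the complex and stood above 99.6% of all tested genes by its WT count. These counts are not divided by gene length, and its exon length was 22866 bp. Levels per kb are given below.

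*Kmt2c*, at chr5:25271795-25498855 on the minus strand, encodes MLL3, the paralog of MLL4. Its counts were 123583, 129359 and 123629 in WT and 165690, 167832 and 150602 in UTX TCD libraries. UTX TCD replicate 3 was the lowest of its group and still above every WT library. The log2 fold change was 0.36 (SE 0.055; limma, adjusted p = 0.000881). The increases of *Kmt2c* and *Kmt2d* held under each alternative, with log2 fold changes from 0.27 to 0.42 for *Kmt2c* and from 0.36 to 0.51 for *Kmt2d*. How reads that match both paralogs were assigned is not given in the sources used here.

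The subunits found only in MLL3/4 complexes showed smaller differences. *Ncoa6*, at chr2:155390656-155473911, encodes a coactivator of nuclear receptors. It was counted at 23964, 22073 and 23074 in WT and at 26424, 25556 and 23569 in UTX TCD libraries. UTX TCD replicate 3 fell below WT replicate 1, so the groups overlapped, and the log2 fold change of 0.13 (SE 0.054; limma, adjusted p = 0.0872) missed the threshold. It passed with the libraries scaled to the same sum (adjusted p = 0.0157), without UTX TCD replicate 3 (0.0231) and with a trend over GC content removed (0.0378). Over all alternatives its adjusted p ran from 0.0157 to 0.334.

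*Paxip1*, at chr5:27740080-27791672, encodes PTIP, a protein with BRCT domains that also acts in the DNA damage response. Its counts were 7061, 6976 and 7305 in WT and 7655, 7308 and 7524 in UTX TCD libraries. Every UTX TCD value was higher, but UTX TCD replicate 2 and WT replicate 3 were nearly equal. The log2 fold change was 0.08 (SE 0.044; limma, adjusted p = 0.202), and the gene passed the threshold with the same-sum scaling alone (adjusted p = 0.0293; range over the alternatives 0.0293 to 0.826).

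*Pagr1a*, at chr7:127015051-127017352, encodes PA1, the partner of PTIP. It was counted at 5281, 5404 and 4680 in WT and at 5612, 5016 and 4671 in UTX TCD libraries. The highest and the lowest value both came from UTX TCD libraries. The log2 fold change was -0.0075 (SE 0.079, 95% confidence interval -0.19 to 0.17; limma, adjusted p = 0.949), and its sign turned to positive with the same-sum scaling and when WT replicate 1, WT replicate 2, UTX TCD replicate 2 or UTX TCD replicate 3 was left out, at 0.05, 0.02, 0.03, 0.0023 and 0.05. At this spread a change of the size seen for *Kmt2d* would lie outside the interval.

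Of the shared core, *Dpy30* was lower and the other 3 genes did not pass the threshold. *Dpy30*, at chr17:74299474-74323944, encodes a small subunit that binds Ash2l. Its counts were 5815, 5409 and 5101 in WT and 5036, 4529 and 4425 in UTX TCD libraries. The groups did not overlap, although UTX TCD replicate 1 was close to WT replicate 3. The log2 fold change was -0.22 (SE 0.068; limma, adjusted p = 0.0281). Whether it passed depended on single libraries: without WT replicate 1, WT replicate 2, UTX TCD replicate 2 or UTX TCD replicate 3 the adjusted p was 0.113, 0.0565, 0.0957 and 0.0771. It also did not pass with the libraries scaled to the same sum (adjusted p = 0.108). Over the alternatives the adjusted p ran from 0.00929 to 0.31.

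*Wdr5*, at chr2:27515147-27536535, encodes a WD40 protein that docks the methyltransferases. It was counted at 11101, 11179 and 12000 in WT and at 10313, 10632 and 10459 in UTX TCD libraries, without overlap. *Ash2l*, at chr8:25816000-25847694, was counted at 10129, 9336 and 10435 in WT and at 8806, 8779 and 9363 in UTX TCD libraries, where UTX TCD replicate 3 exceeded WT replicate 2. Both genes sat at the threshold, with log2 fold changes of -0.13 (SE 0.045; limma, adjusted p = 0.0521) for *Wdr5* and -0.15 (SE 0.054; limma, adjusted p = 0.0525) for *Ash2l*. With edgeR on the recovered reads they had adjusted p = 0.0454 and adjusted p = 0.0484, and with DESeq2 adjusted p = 0.0546 and adjusted p = 0.0466, so the number of genes past the threshold was 6 with edgeR, against 40.6% of all genes, and 5 with DESeq2, against 41.2%. Over the alternatives the adjusted p of *Wdr5* ran from 0.0299 to 0.234 and that of *Ash2l* from 0.0147 to 0.195. *Ash2l* passed without WT replicate 2 (adjusted p = 0.0147) and without UTX TCD replicate 3 (adjusted p = 0.0368), and *Wdr5* with TMM scaling (adjusted p = 0.0487). Both passed among genes averaging at least 50 counts, at adjusted p = 0.0476 for *Wdr5* and adjusted p = 0.0497 for *Ash2l*. With the libraries scaled to the same sum neither passed. The log2 fold changes were then -0.06 for *Wdr5* (limma, adjusted p = 0.234) and -0.09 for *Ash2l* (limma, adjusted p = 0.195).

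*Rbbp5*, at chr1:132477348-132505665, encodes the subunit that joins Ash2l to the catalytic domain. Its counts were 13725, 14489 and 14629 in WT and 14295, 14948 and 14184 in UTX TCD libraries, and the groups overlapped. The log2 fold change was 0.02 (SE 0.044, 95% confidence interval -0.080 to 0.12; limma, adjusted p = 0.752), and it turned to -0.0087 without WT replicate 1 and to -0.0036 without UTX TCD replicate 2.

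Levels were compared between genes as normalized count per kb of RefSeq exon length. In WT cells *Kmt2d* was highest at 8026 ± 223 per kb (SD, n = 3), followed by *Kmt2c* at 7328 ± 194 and *Dpy30* at 4744 ± 312. *Rbbp5* (3850 ± 131), *Kdm6a* (3694 ± 53.4), *Pagr1a* (3627 ± 275), *Wdr5* (3414 ± 149) and *Ncoa6* (3193 ± 131) formed a run in which each gene's libraries overlapped those of its neighbour. *Ash2l* came next at 2817 ± 160, and *Paxip1* was far below all others at 909.1 ± 21.8. The highest level per kb was thus 8.83 times the lowest. Per kb of coding sequence the range was similar, 8.13, but the highest gene was then *Dpy30*, so the order depends on the length used.

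In UTX TCD cells *Kmt2d* and *Kmt2c* were further ahead, at 10965 ± 336 and 9421 ± 548 per kb. By level per kb *Kdm6a* moved from rank 5 to rank 7 of the 10 genes, at 3141 ± 41.3 per kb, where its libraries overlapped those of *Wdr5* and lay below those of *Ncoa6*. *Dpy30*, at 4066 ± 285 per kb, no longer stood clear of *Rbbp5*, at 3903 ± 111.

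The ratio of 2 genes within a library does not depend on how libraries are scaled. The level of *Kmt2d* per kb was 2.14, 2.21 and 2.17 times that of *Kdm6a* in the WT libraries and 3.49, 3.57 and 3.41 times in the UTX TCD libraries. For *Kmt2c* the ratio to *Kdm6a* was 1.98, 2.04 and 1.93 in the WT libraries and 3.12, 3.08 and 2.79 in those of UTX TCD. For *Dpy30* it was 1.39, 1.27 and 1.19 against 1.42, 1.24 and 1.22 in the same order. The ratios of both methyltransferases were therefore clear of overlap and 1.61 and 1.51 times higher on average, whereas those of *Dpy30* overlapped between the genotypes. Of the 9 partners, 7 had a higher ratio to *Kdm6a* in each UTX TCD library, and *Ash2l* and *Dpy30* overlapped. Since *Kdm6a* itself was lower, this held for 8101 of the 14458 other tested genes, and the count is not a result about the partners.

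Fold changes moved with gene length across the whole table, and the genes of the complex span much of that range. Across 13891 tested genes with a RefSeq exon length (96.1%), Spearman's rho between length and log2 fold change was 0.186, a description across genes, which are not independent replicates. The 2334 genes under 1.5 kb had a median log2 fold change of -0.15, and 31.5% of them were lower past the adjusted p. *Dpy30*, with an exon length of 1147 bp, belongs to this class, and so does *Pagr1a*, with 1412 bp. The 304 genes of at least 15 kb had a median of 0.07, and 33.9% of them were higher. *Kmt2c* (17130 bp) and *Kmt2d* (22866 bp) belong to that class, with log2 fold changes well above its median. *Kdm6a* (7804 bp) is in the class of 6 to 9 kb, where the median was 0.06 and 15.5% of genes were lower.

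With the trend over exon length removed from each library, an alternative chosen after seeing the data, *Kdm6a* was at -0.30 (limma, adjusted p = 0.000252). *Kmt2d* was then at 0.36 (limma, adjusted p = 0.000319) and *Kmt2c* at 0.27 (limma, adjusted p = 0.00258). *Dpy30* was at -0.09 (limma, adjusted p = 0.31), and *Pagr1a* and *Rbbp5* changed sign, to 0.09 and -0.0088. The 3 genes *Kdm6a*, *Kmt2c* and *Kmt2d* thus passed the threshold with and without this trend, and *Dpy30* did not pass without it. With the trend removed *Wdr5* and *Ash2l* also passed, both lower (limma, adjusted p = 0.0299 and adjusted p = 0.0301), which made 5 of the 10 genes, against 38.6% of all genes in that fit.

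**Figure D2:**
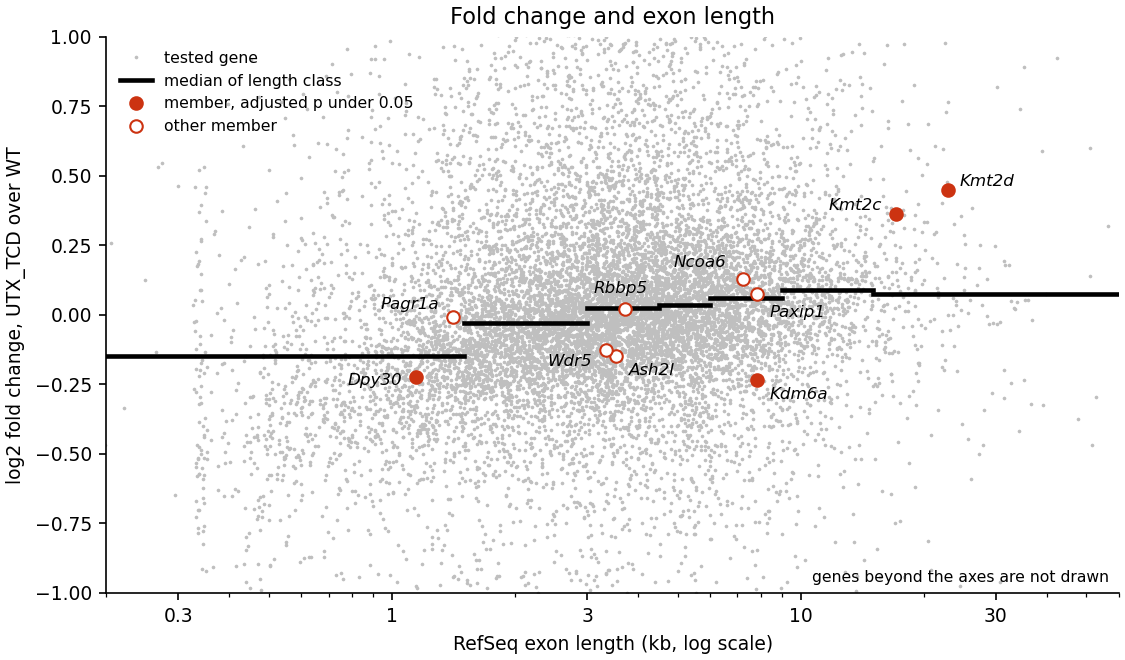
Log2 fold change, UTX TCD over WT, of tested genes against RefSeq exon length on a log axis, with the median of each length class as a bar and the 10 genes of the complex as circles, filled where the limma adjusted p was under 0.05. The medians were lowest under 1.5 kb, at -0.15, and highest from 9 to 15 kb, at 0.09, with 0.07 at 15 kb and over; *Kmt2c* and *Kmt2d* lie above and *Kdm6a* below the bar of their class, whereas *Dpy30* is close to its own.

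The relatives of UTX showed no difference past the threshold. *Kdm6b* encodes JMJD3, the other demethylase of lysine 27, and was counted at 36213, 33987 and 35716 in WT and at 35527, 35197 and 33916 in UTX TCD libraries. The groups overlapped, with a log2 fold change of -0.02 (SE 0.043, 95% confidence interval -0.11 to 0.079; limma, adjusted p = 0.777) that turned to 0.05 with the same-sum scaling, to 0.0013 without WT replicate 1 and to 0.0028 without UTX TCD replicate 3. With the length trend removed it was -0.09 (limma, adjusted p = 0.109; range over the alternatives 0.109 to 0.988). *Uty*, the Y-linked homolog, had 0 reads in every WT library and 1, 1 and 0 reads in the UTX TCD libraries and was not tested.

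Of the list of lysine 27 enzymes and their subunits, 6 genes were tested, *Kdm6b* among them, and 2 were past the adjusted p, both higher, against 20.2% of all genes higher and 40.7% past the threshold. *Ezh2*, the methyltransferase that UTX opposes, was counted at 7935, 7917 and 7789 in WT and at 10727, 11102 and 11528 in UTX TCD libraries. The genotypes were far apart relative to the spread, and the log2 fold change of 0.496 (SE 0.043; limma, adjusted p = 3.73e-05) was just under the limit of 0.5 for a call. It was over that limit with the same-sum scaling (0.56), without WT replicate 1 (0.501) and without UTX TCD replicate 1 (0.52). *Suz12*, another subunit of the same Polycomb complex, had a log2 fold change of 0.26 (SE 0.058; limma, adjusted p = 0.00688). *Eed*, the third subunit of its core, was at 0.12 (limma, adjusted p = 0.0813), and passed without WT replicate 2 (adjusted p = 0.0299), with the same-sum scaling (0.0311) and with the length trend removed (0.0355), in a range of 0.0299 to 0.231.

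The other methyltransferase complexes for lysine 4, which share the core with MLL3/4, gave a mixed picture. Of the 12 genes listed, all tested, 4 were higher and 3 lower past the adjusted p, with a median log2 fold change of 0.11, against 20.2% and 20.5% of all genes. By size the leading genes were *Bod1*, a SET1B complex subunit, at 0.34 (SE 0.094; limma, adjusted p = 0.0172), *Kmt2a* (MLL1) at 0.30 (SE 0.058; limma, adjusted p = 0.00339) and *Psip1*, a tether of MLL1 to chromatin, at -0.27 (SE 0.044; limma, adjusted p = 0.00131). Named after their values were seen, *Setd1b* (0.26; limma, adjusted p = 0.0106) and *Hcfc1* (0.17; limma, adjusted p = 0.0117) were also higher. Chosen in the same way, *Wdr82* (-0.18; limma, adjusted p = 0.00587) and *Cxxc1* (-0.16; limma, adjusted p = 0.0271) were lower. *Hcfc1* did not pass without UTX TCD replicate 2 (adjusted p = 0.0574) or with the length trend removed (0.0746), in a range of 0.000944 to 0.0746. *Cxxc1* did not pass without WT replicate 1 (adjusted p = 0.0918), WT replicate 3 (0.0891), UTX TCD replicate 2 (0.0596) or UTX TCD replicate 3 (0.0633), or with the same-sum scaling (0.105), in a range of 0.0117 to 0.105. *Kmt2a* was counted at 162799, 171940 and 164143 in WT and at 210338, 213287 and 190088 in UTX TCD libraries, without overlap. Its exon length of 16810 bp puts it in the same length class as *Kmt2c* and *Kmt2d*. *Bod1* no longer passed the adjusted p without WT replicate 1 (adjusted p = 0.0622), WT replicate 3 (0.0619) or UTX TCD replicate 2 (0.0715), in a range of 0.00361 to 0.0715. Without UTX TCD replicate 2 the list had 4 genes past the threshold.

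Of the 5 tested demethylases of lysine 4, 2 were higher, against 20.2% of all genes and 40.7% past the threshold either way: *Kdm5b* at a log2 fold change of 0.20 (limma, adjusted p = 0.00793) and *Kdm5c* at 0.15 (limma, adjusted p = 0.0196). *Kdm1b* was at -0.05 (limma, adjusted p = 0.405), and at 0.02 with the same-sum scaling. *Kdm5c* no longer passed without WT replicate 1 (adjusted p = 0.0868), without UTX TCD replicate 2 (0.089) or with the length trend removed (0.166), in a range of 0.0019 to 0.166, and the list then had 1 gene past the threshold. Among 10 enhancer coactivators, 2 were higher, the share of all genes being 20.2%: *Ncoa1* at 0.44 (SE 0.079; limma, adjusted p = 0.00223) and *Med13* at 0.13 (SE 0.042; limma, adjusted p = 0.0333), while *Crebbp* was at 0.13 (limma, adjusted p = 0.111) and passed without UTX TCD replicate 3 (0.00783) and with the same-sum scaling (0.0235), in a range of 0.00783 to 0.513. *Ncoa1* exceeded 0.5 without UTX TCD replicate 3, at 0.53, and with the same-sum scaling, at 0.501. The count of coactivators rose to 7 with the libraries scaled to the same sum, which also raised the number of all genes past the threshold and higher from 2924 to 3793. It fell to 1 without WT replicate 1, WT replicate 3, UTX TCD replicate 1 or UTX TCD replicate 2, where the adjusted p of *Med13* was 0.133, 0.0968, 0.0995 and 0.121. *Med13* also did not pass with the length trend (adjusted p = 0.326) or the GC trend (0.0683) removed, in a range of 0.00679 to 0.326.

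*Kdm6a* is known to escape X inactivation in mice, so other such genes were read beside it. Of 6 listed, *Xist* and *Kdm5c* were higher and *Pbdc1* lower past the adjusted p, 3 genes in all against 40.7% of the tested genes. *Xist*, the RNA that coats the inactive X chromosome, was counted at 147181, 170559 and 154665 in WT and at 297027, 315232 and 313136 in UTX TCD libraries. The lowest UTX TCD library was far above the highest WT library, and the log2 fold change of 0.97 (SE 0.064; limma, adjusted p = 8.12e-06) was the only call in the related lists. *Pbdc1* was at -0.21 (limma, adjusted p = 0.023), and no longer passed with the same-sum scaling (adjusted p = 0.0996) and without WT replicate 1 (0.0526), WT replicate 2 (0.0624), UTX TCD replicate 1 (0.0779) or UTX TCD replicate 2 (0.0708), in a range of 0.0044 to 0.0996. *5530601H04Rik* was at 0.28 (limma, adjusted p = 0.0667) and passed without WT replicate 2 (adjusted p = 0.00238), with DESeq2 (0.0396), with the GC trend removed (0.0424) and with the same-sum scaling (0.0468), in a range of 0.00238 to 0.204. The number past the threshold fell from 3 to 1 without WT replicate 1 or without UTX TCD replicate 2. Over chromosome X as a whole, 21.2% of 466 tested genes were higher and 18.7% lower past the adjusted p, against 20.4% and 20.6% of 13425 autosomal genes, and the median log2 fold changes were 0.0060 and 0.0019.

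Among the genes beside *Kdm6a*, only *Fundc1* had high counts. Of the 3 nearest listed genes on each side, *Dusp21*, *Dipk2b*, *Mir221* and *Mir222* had fewer than 10 normalized counts in each library (gene counts do not measure mature microRNAs), and *Efhc2* had between 11.4 and 25.1. *Fundc1*, a mitophagy receptor gene at chrX:17519967-17572329, was counted at 4509, 4917 and 4921 in WT and at 3532, 4160 and 4372 in UTX TCD libraries. The groups did not overlap, and the log2 fold change was -0.25 (SE 0.081; limma, adjusted p = 0.0334). It no longer passed with the same-sum scaling (adjusted p = 0.0914) and without WT replicate 2, WT replicate 3, UTX TCD replicate 1 or UTX TCD replicate 2, at adjusted p = 0.0874, 0.0912, 0.0838 and 0.0561, in a range of 0.0108 to 0.0914. Without UTX TCD replicate 1 the log2 fold change was -0.16.

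The genes whose log2 counts followed *Kdm6a* most closely over the 6 libraries were *Tbcel* (Pearson's r = 0.99949), *Fut11* (0.99906), *Mrps24* (0.99888), *Imp3* (0.99884) and *Myo18a* (0.99852). This r is a description without a test, since the libraries form a cluster per genotype, and 2000 of 14458 genes had an r above 0.9. The normalized count of *Tbcel* averaged 23206 ± 539 in WT cells (SD, n = 3) against 17741 ± 418 (SD, n = 3).

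The ATAC-seq table gives, for each peak that the authors' comparison selected, their mean log2 read concentration in each genotype and no value per library. Differences between these means are given here as UTX TCD minus WT, without a test. Since each listed peak was selected for differing, its difference is a description, and a gene without a listed peak may still have open chromatin. Of the 23932 listed peaks, 10 were assigned to 5 genes of the complex, so 5 of the 10 genes had at least 1, against 47.6% of all genes tested in RNA-seq. *Ncoa6*, *Paxip1*, *Pagr1a*, *Rbbp5* and *Dpy30* had none, either by assignment or within the gene body. Of the 10 peaks 6 were more accessible in UTX TCD cells and 4 less, while 68.8% of all listed peaks were more accessible.

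The 4 less accessible peaks all belonged to *Kdm6a* and lay in intron 2 of 28, between exon 2, which ends at 18163447, and exon 3, which starts at 18199158. The peak at chrX:18179533-18179933, 17158 bp from the transcription start site, had a mean log2 concentration of 7.80 in WT and 6.98 in UTX TCD cells, a difference of -0.82. At chrX:18187155-18187555 the means were 7.67 and 7.24, a difference of -0.42. The pair nearest to exon 3 differed by -0.46 at chrX:18191009-18191409, from 7.99 to 7.54, and by -0.70 at chrX:18191993-18192393, from 7.12 to 6.42. The last of these ends 6765 bp before exon 3. None of the 4 was at the promoter or within 10 kb of the start site. Of 1631 genes with at least 4 listed peaks, 261 had all of them less accessible. Lower counts and lower accessibility thus went together at *Kdm6a*, and whether reads from this intron are affected by the floxed allele was not tested.

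**Figure D3:**
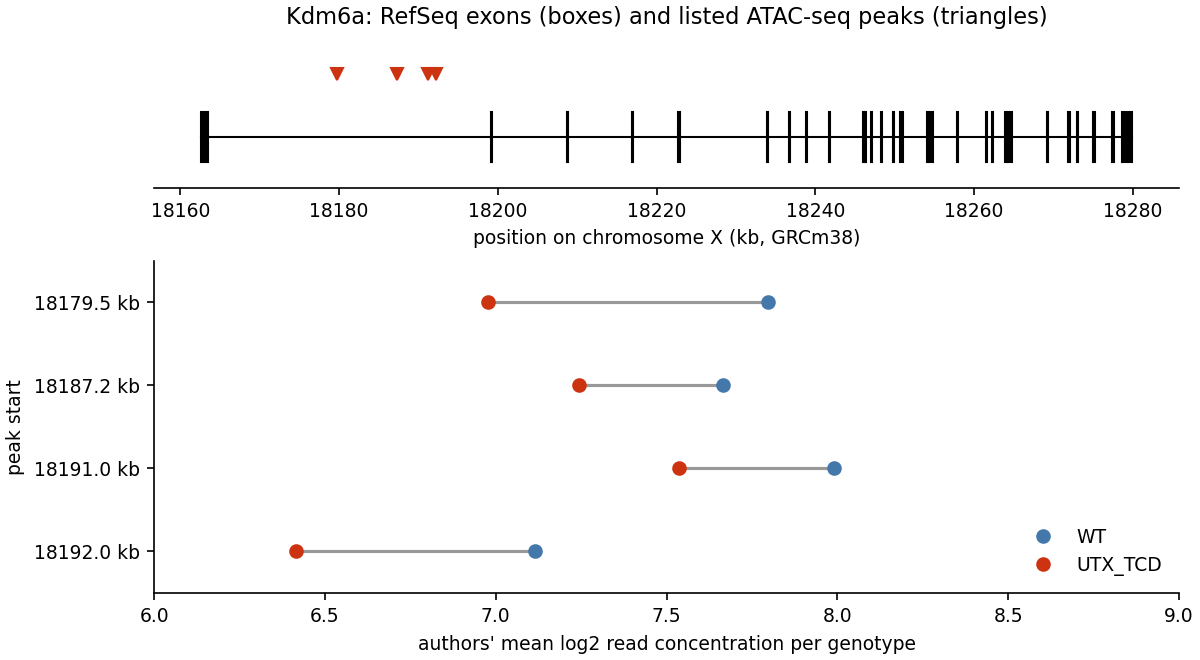
Top, the RefSeq exons of *Kdm6a* on chromosome X of GRCm38 in kb, drawn as boxes to scale with a minimum width, and the 4 listed ATAC-seq peaks as triangles. Bottom, the authors' mean log2 read concentration of each peak in WT and UTX TCD cells: all 4 are lower in UTX TCD cells, by 0.42 to 0.82 on the log2 scale, and all lie in the long intron 2.

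At the methyltransferase genes the listed peaks were more accessible, in the direction of their counts. *Kmt2c* had 3, in intron 1 of 58 at chr5:25450342-25450742, in intron 7 at chr5:25392683-25393083 and in intron 1 again at chr5:25493078-25493478. The first of these differed most of all peaks of the complex, with means of 5.85 in WT and 6.92 in UTX TCD cells, a difference of 1.08. The peak in intron 7 went from 6.76 to 7.53 and the last, 5505 bp from the start site, from 8.08 to 8.50. *Kmt2d* had 1 peak, in intron 1 of 54 at chr15:98869274-98869674 and 1731 bp from the start site, with means of 9.43 and 9.86. More accessible peaks made up 68.8% of all those listed, so this direction does not set these genes apart.

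Of the core genes only *Ash2l* and *Wdr5* had a listed peak. *Ash2l* had 1 promoter peak at chr8:25848289-25848689, 795 bp before its start site and within the annotated span of *Kcnu1*, with means of 6.51 in WT and 7.15 in UTX TCD cells. *Wdr5* was assigned an intergenic peak at chr2:27567254-27567654, 52307 bp beyond its start site, with means of 5.57 and 6.57. Both peaks were more accessible in UTX TCD cells, while the counts of *Ash2l* and *Wdr5* were on average lower without passing the threshold.

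The central 151 bases of 6 peaks are printed to show the sequence at which accessibility differed, namely the 4 peaks of *Kdm6a*, the *Kmt2c* peak with the largest difference and the *Ash2l* promoter peak. They are the plus strand of GRCm38 at chrX:18179658-18179808, chrX:18187280-18187430, chrX:18191134-18191284, chrX:18192118-18192268, chr5:25450467-25450617 and chr8:25848414-25848564, in this order. Capitals mark matches on either strand to any of 4 motifs: CTTTGA for TCF1 and LEF1, TTCNNNGAA for STAT proteins, TGTGGT for RUNX and CCGGAA for ETS factors, of which the STAT and ETS letters can share bases.
Kdm6a intron 2 peak 1: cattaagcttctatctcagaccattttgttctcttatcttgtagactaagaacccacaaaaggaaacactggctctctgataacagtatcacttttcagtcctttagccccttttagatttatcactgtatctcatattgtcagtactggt
Kdm6a intron 2 peak 2: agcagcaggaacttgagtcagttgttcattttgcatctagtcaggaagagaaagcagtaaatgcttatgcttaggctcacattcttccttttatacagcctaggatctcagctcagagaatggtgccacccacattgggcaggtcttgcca
Kdm6a intron 2 peak 3: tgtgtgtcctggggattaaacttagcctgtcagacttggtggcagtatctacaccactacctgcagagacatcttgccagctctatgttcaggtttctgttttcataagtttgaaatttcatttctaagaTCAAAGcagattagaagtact
Kdm6a intron 2 peak 4: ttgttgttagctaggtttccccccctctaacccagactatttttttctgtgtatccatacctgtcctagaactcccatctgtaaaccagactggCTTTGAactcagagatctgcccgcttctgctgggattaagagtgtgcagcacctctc
Kmt2c intron 1 peak: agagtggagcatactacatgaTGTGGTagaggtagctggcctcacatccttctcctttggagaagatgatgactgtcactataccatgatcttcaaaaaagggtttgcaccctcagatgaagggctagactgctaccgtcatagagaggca
Ash2l promoter peak: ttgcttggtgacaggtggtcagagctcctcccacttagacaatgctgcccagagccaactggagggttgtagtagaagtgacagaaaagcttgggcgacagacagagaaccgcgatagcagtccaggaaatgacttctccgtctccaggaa
The TCF1 and LEF1 letters are in the printed part of *Kdm6a* peaks 3 and 4 and the RUNX letters in that of *Kmt2c*, and the other 3 printed stretches hold none of the motifs.

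Over their full 401 bp, 3 of the 10 peaks of the complex held the TCF1 and LEF1 letters, against 30.55% of the 23931 listed peaks of this length. The RUNX letters were in 5 of the 10, namely in the 3 peaks of *Kmt2c*, the peak of *Kmt2d* and 1 peak of *Kdm6a*, against 39.63% of all. The ETS letters were in 2, against 10.03%, and the STAT letters in 0, against 11.85%. These counts are a description of short letters in few peaks, and a match is not a bound site.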

How the data were processed

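RNA-seq and ATAC-seq were grouped by the genotype and replicate number in the labels. Per the methods, the authors used HISAT2 2.2.1 (mm10), featureCounts and DESeq2, and the deposited signal, a count per gene divided by a size factor per library, was analysed. Gene annotation and strand setting are not given in the sources used here, but none of the 10 genes shares exon bases with another RefSeq gene. For ATAC-seq the authors used Cutadapt, Bowtie2, MACS2, DiffBind and HOMER, and the deposited values used were the mean log2 concentrations per genotype. A shift for the transposase is not given in the sources used here. The authors' own comparison columns (fold changes, p-values and false discovery rates) were not used. The methods state 3 biological replicates per genotype for ATAC-seq. For RNA-seq 3 samples per genotype are given, and p-values measure the spread between them.

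For genes averaging 10 normalized counts or more, limma 3.58.1 (trend) in R 4.3.3 was fitted to log2(normalized count + 1), genotype as the only term, with Benjamini-Hochberg adjustment. The fold change understates the change of low genes. The script was tested on simulated data. All values were whole multiples of 1 step per library within 0.01 of a read (100% of values), and edgeR 4.0.16 and DESeq2 1.42.0 were run on the recovered reads, calling 2541 and 2422 genes against 2538 with limma. No library was a copy of another, as the chi-square per gene of the reads was at least 12.5 within a genotype. Peak positions were checked against GRCm38: 98.3% of distances to start sites matched RefSeq within 2 bp. Sequences and exon lengths are from RefSeq (GRCm38.p6), read with pysam 0.24.0.

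The members and lists were chosen with earlier results of these data known. Of the marker lists, 2 genes are not reported here, and the sums are without them. Named are the 10 genes, *Uty*, *Kdm6b*, in each related list the called genes and the 3 largest absolute fold changes (outside this rule, *Setd1b*, *Hcfc1*, *Wdr82* and *Cxxc1* were named after their values were seen), the 3 nearest listed genes on each side of *Kdm6a*, the 5 genes most correlated with it and the markers. Alternatives covered the pseudocount, filter, scaling, test, replicate block, fold limit, peak limits, gene length and each library left out. Removal of trends over exon length and GC content was added after seeing the data.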

Additional observations from a re-analysis of the deposited data

How the results depend on the processing

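*Kdm6a*, *Kmt2c* and *Kmt2d* kept their direction and passed the adjusted p of 0.05 under all 17 alternatives run for each. The number of genes of the complex past that threshold ran from 4 to 6 over the other settings and from 3 to 5 with a library left out, while the share of all genes past it ran from 27.6% to 43.7% and from 29.9% to 39.6%. The number called was 1 with the libraries scaled to the same sum, 4 with no fold limit, and 0 with any library left out. With no fold limit 5887 genes were called over the whole table; with a library left out the count ran from 2162 to 2572.

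With a library left out, the number past the threshold ran from 4 to 9 for the other lysine 4 methyltransferase complexes, from 1 to 2 for the demethylases, from 1 to 3 for the coactivators and from 1 to 4 for the genes escaping X inactivation, beside the same 29.9% to 39.6% of all genes. Same-sum scaling gave 7 coactivators, and removal of the length trend left 1 demethylase. The cause of these moves was not tested.

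Signs turned for small differences: *Pagr1a* to 0.0548 (same-sum scaling), 0.0860 (length trend removed) and a range of -0.0787 to 0.0538 with a library left out; *Rbbp5* to -0.00882 (length trend removed) and a range of -0.00866 to 0.0374; *Kdm6b* to 0.0451 (same-sum scaling) and a range of -0.0444 to 0.00283; and *Kdm1b* to 0.0167 (same-sum scaling).

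Restricting peaks to a difference over 0.5 left 6 of 10, and to 10 kb from a start site 3. The median absolute difference of all listed peaks was 0.709, itself above 0.5, so the first count does not set the complex apart. The highest level per kb over the lowest was 8.13 with coding length.

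The labels give same-numbered libraries only a shared number. Their deviations from the group means correlated at 0.305, -0.20 and 0.0897, and those of unlike-numbered libraries at -0.324 to 0.294. With 3 libraries per genotype, these values cannot show whether same-numbered libraries were paired. With the replicate block 2474 genes were called over the table, none of them in the complex. Past the adjusted p alone were 5 genes of the complex, against 39.4% of all genes. *Ash2l* was gained (limma with the block, adjusted p = 0.0352), and *Kdm6a* was at adjusted p = 0.00378. The marker *Myb* did not pass with the block (adjusted p = 0.0589).

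With 3 libraries per genotype, *Ash2l*, *Wdr5* and *Dpy30* lay on either side of the threshold depending on the setting. ATAC-seq differences carry no replicate spread here. The RNA-seq libraries also differed in markers beside those of CD8 T cells. In the main fit *Cxcr6*, *Nkg7*, *Gzmb*, *Cd79b*, *Itgam*, *Csf1r* and *Cd4* were lower past the adjusted p, and *Ms4a1*, *Cd68* and *Myb* higher. Among the others, *Entpd1* and *Cd79a* did not pass. Within the B cell and myeloid lists the markers thus went both ways. The part of the marker differences in the results on the complex was not tested.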
